A study of Rattus norvegicus with 6 samples.

Results

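The genes described here encode 10 components of transforming growth factor beta (TGF-beta) and activin signalling: the ligands Tgfb1, Tgfb2, Tgfb3 and Inhba, the activin-binding protein Fst, the receptors Tgfbr1, Tgfbr2 and Tgfbr3, the intracellular inhibitor Smad7 and the TGF-beta-induced matrix protein Tgfbi. They were taken by gene symbol from the array annotation, and 9 of the 10 had at least 1 probe set named for that gene alone, 16 probe sets in all, out of 14217 genes named on the array. Tgfbr2 had none, so its signal was not analysed here. Of the 16 probe sets 13 passed the filter on low signal (a mean over the arrays above 5.68 on the log2 scale) and were tested, and each of the 9 genes kept at least 1 of them. Each gene is represented by its brightest probe set (highest mean of the 6 arrays), and the others are given beside it. Of the 13, 5 were called (38.5%), against 22.5% of all probe sets tested.

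The samples were 3 arrays of peri-implant soft tissue and 3 of oral mucosal tissue from male Sprague Dawley rats, an outbred strain. At 4 weeks of age the rats had lost the upper first molar of either side by extraction. A titanium alloy implant was placed in the left socket only, and after 4 weeks the soft tissue around the implant was taken from the left side and the mucosa that had healed over the empty socket from the right. Extraction and healing were therefore common to both groups, while implant and side of the mouth cannot be told apart. Whether the arrays of a group came from separate rats is not stated in the labels, so the p-values reflect only the spread between these samples, and this may be technical.

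Ligands of the TGF-beta family are secreted and, in the case of TGF-beta itself, stored in the matrix in a latent form. Once active they bind a type II receptor (Tgfbr2 for TGF-beta), which activates a type I receptor (Tgfbr1), and this phosphorylates Smad2 and Smad3, which enter the nucleus with Smad4. Activin A, a dimer of the Inhba product, uses activin receptors and the same Smads, and follistatin, encoded by Fst, binds and neutralises it. In healing skin and oral mucosa these ligands are known for their effects on fibroblasts, matrix and keratinocytes.

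The arrays had median log2 signals of 6.62 to 6.78, and each array correlated more closely with those of its own group (lowest r 0.965) than with those of the other (highest r 0.945, across the 18625 probe sets tested). Keratinocyte markers were bright in both tissues, with a summed linear signal of 226263 to 316478 in peri-implant tissue and 239957 to 341917 in mucosa over 6 genes. Markers of several other cell types, though not all, moved with the tissue. Fibroblast markers were lower in 7 of 8 genes and higher in 1, Dcn, with a summed linear signal of 39672 to 41444 in peri-implant tissue against 64017 to 70220 in mucosa. Markers of macrophages and monocytes were higher in 7 of 8 tested genes, with a summed signal of 9171 to 10078 in peri-implant tissue against 4778 to 4928 in mucosa over 9 genes. Neutrophil markers were higher in 4 of 5 genes (118493 to 161041 in peri-implant tissue against 26443 to 28912 in mucosa). Most of this sum was S100a8 and S100a9, higher by 1.89 and 2.77 on the log2 scale. Csf3r was higher by 2.26 and Fcgr3a by 0.88, while Cxcr2 differed by -0.10 and did not pass. T cell markers were higher in 4 of 4 tested genes (1297 to 1388 in peri-implant tissue against 335 to 384 in mucosa, over 7 genes). Bone markers were higher in 2 and lower in 1 of 3 tested (4994 to 5268 in peri-implant tissue against 1045 to 1184 in mucosa, over 6 genes), and most of this sum was Spp1, at 12.18 ± 0.05 in peri-implant tissue and 9.26 ± 0.10 in mucosa on the log2 scale, while Ibsp was lower (difference -1.49). Erythrocyte markers were higher in 2 of 3. For B and plasma cells 1 of 2 tested genes was higher (Jchain, 3.44) and for endothelial cells 1 of 6, while 1 of 4 smooth muscle genes and the 1 salivary gland gene tested, Aqp5 (-1.90), were lower. The single tested genes of mast cells and of skeletal muscle did not pass, nor did 4 of the 6 keratinocyte genes. Among the keratinocyte, fibroblast, macrophage, neutrophil, T cell and bone markers none was at 0 on any array. Their part in the results below was not tested, and in bulk tissue fewer cells of a type and less RNA per cell cannot be told apart.

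Among the 9 genes measured, Tgfb3 was higher in peri-implant soft tissue and Tgfbi and Tgfb2 were lower, while the other 6 did not pass the test. Of the 10585 genes tested, 15.2% were called higher and 11.0% lower, so that 26.1% were called in all. The share among these genes, 33.3%, was near that background. Groups did not overlap for 4 of the 9, against 41.9% of all genes. The median difference was 0.25 over the 9 genes and 0.0346 over all genes tested, on the log2 scale.

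The sequences before the annotated starts of the 3 called genes are shown because these genes moved in opposite directions. They are the 250 bases upstream in RefSeq's GRCr8 assembly, on the minus strand in each case, at chr13:100792686-100792935 for Tgfb2, chr6:111456947-111457196 for Tgfb3 and chr17:7990114-7990363 for Tgfbi. Capitals mark the 4-base Smad-binding core, AGAC or GTCT on the other strand.
Tgfb2: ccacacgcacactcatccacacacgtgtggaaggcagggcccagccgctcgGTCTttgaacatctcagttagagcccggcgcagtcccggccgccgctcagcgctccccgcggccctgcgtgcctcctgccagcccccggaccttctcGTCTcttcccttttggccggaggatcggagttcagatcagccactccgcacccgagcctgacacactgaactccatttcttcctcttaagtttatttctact
Tgfb3: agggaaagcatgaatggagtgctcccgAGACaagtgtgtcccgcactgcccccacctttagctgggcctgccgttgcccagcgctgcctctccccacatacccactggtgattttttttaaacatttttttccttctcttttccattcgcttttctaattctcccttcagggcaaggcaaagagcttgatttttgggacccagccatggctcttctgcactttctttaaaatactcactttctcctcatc
Tgfbi: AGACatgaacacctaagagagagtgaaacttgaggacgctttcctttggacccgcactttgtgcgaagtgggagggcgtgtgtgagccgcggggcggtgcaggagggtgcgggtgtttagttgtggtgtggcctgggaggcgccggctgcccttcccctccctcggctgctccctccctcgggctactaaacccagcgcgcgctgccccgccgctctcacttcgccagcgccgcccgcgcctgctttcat
Tgfb2 held 2 matches to the core, and Tgfb3 and Tgfbi held 1 each, where the median over all 33469 promoters was 2 and 84.0% held at least 1. Sequences were found for 9 of the 10 genes, all but Fst and with Tgfbr2 among them. Over these, the 5-base Smad box CAGAC was found in 0, against 42.9% of all promoters, both strands searched. The Smad palindrome GTCTAGAC, which contains the core, was found in 0 against 0.173%. The cyclic AMP response element TGACGTCA was found in 0 against 1.59%, and the AP-1 site TGANTCA in 0 against 6.34%. A TATAAA box was found in 1, Inhba, against 12.9%. These counts describe letters in the 250-base windows only.

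Tgfb3 and Tgfb2 encode closely related TGF-beta isoforms that signal through the same receptors. Tgfb3 had log2 signals of 10.39, 10.30 and 10.19 on the peri-implant arrays, against 9.47, 9.42 and 9.57 on the mucosal arrays. Every peri-implant array lay above every mucosal one. The means were 10.30 ± 0.10 and 9.49 ± 0.08 (SD, n = 3 each), a difference of 0.81 (SE 0.09), or 1.75-fold, with a limma adjusted p of 3.29e-05. It passed in all 15 alternative settings in which it was fitted.

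Tgfb2 ran the other way, with 8.67, 8.05 and 8.62 on the peri-implant arrays against 9.25, 9.10 and 9.12 on the mucosal ones. The groups did not overlap, and peri-implant array 2 was the lowest. Tgfb2 fell to 8.44 ± 0.34 in peri-implant tissue, against 9.15 ± 0.08 in mucosa, a difference of -0.71 (SE 0.17; limma adjusted p = 0.00698), with mucosa 1.64-fold higher. Without that array the difference was -0.51 and still passed (limma adjusted p = 0.026). Fitted with no variance trend it no longer passed (limma adjusted p = 0.0514).

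The other Tgfb2 probe set had 6.33, 6.33 and 6.82 in peri-implant tissue against 7.33, 7.35 and 7.25 in mucosa. It also fell, with a difference of -0.82 (SE 0.27; limma adjusted p = 0.0441). Both Tgfb2 probe sets therefore had the same direction. The second passed in 1 of the 6 fits that left out an array, the one without peri-implant array 3, with limma adjusted p-values of 0.0364 to 0.136 over the 6.

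Because both isoforms were read on the same arrays, their difference within an array does not depend on the scaling of arrays. Tgfb3 minus Tgfb2 was 1.73, 2.26 and 1.58 on the peri-implant arrays and 0.22, 0.32 and 0.45 on the mucosal arrays. Signals of different probe sets are not comparable as levels, so only the shift between tissues, 1.52 on the log2 scale, can be read. The exact two-sided permutation test gave p = 0.1, the smallest that 3 arrays against 3 allow. As Tgfb3 separated the groups upward and Tgfb2 downward, that outcome was fixed in advance and adds no support. This pair was chosen after its values were seen. With the second Tgfb2 probe set the shift was 1.63.

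**Figure D1:**
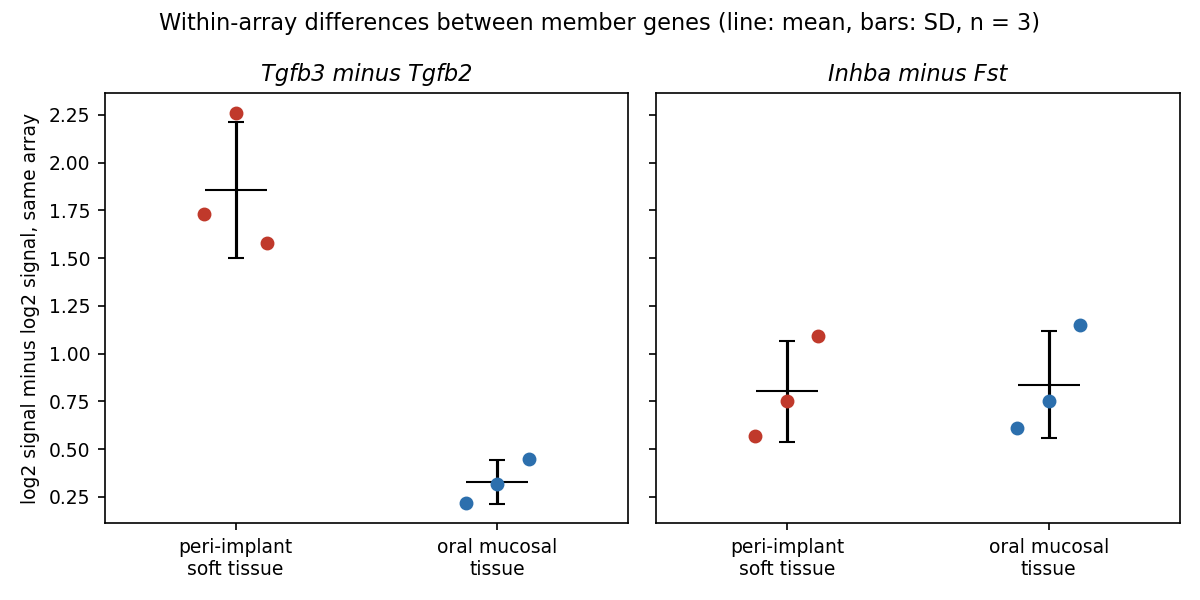
Log2 signal of one gene minus that of another on the same array, for each peri-implant (red, left) and oral mucosal (blue, right) array, with the mean as a line and the SD as bars (n = 3). Tgfb3 minus Tgfb2 sits at 1.58 to 2.26 in peri-implant tissue and 0.22 to 0.45 in mucosa, while Inhba minus Fst overlaps between the tissues. The brighter probe set of each gene is plotted.

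Tgfb1, the isoform best known from wound healing and fibrosis, had 7.58, 7.11 and 7.10 in peri-implant tissue against 6.99, 6.71 and 7.13 in mucosa. The groups overlapped, since the highest mucosal array lay above 2 of the peri-implant arrays. The difference was 0.32 (SE 0.26; limma adjusted p = 0.417), with a 95% interval of -0.23 to 0.88, and so a rise of up to 0.88 was within the error of 3 arrays a group.

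**Figure D2:**
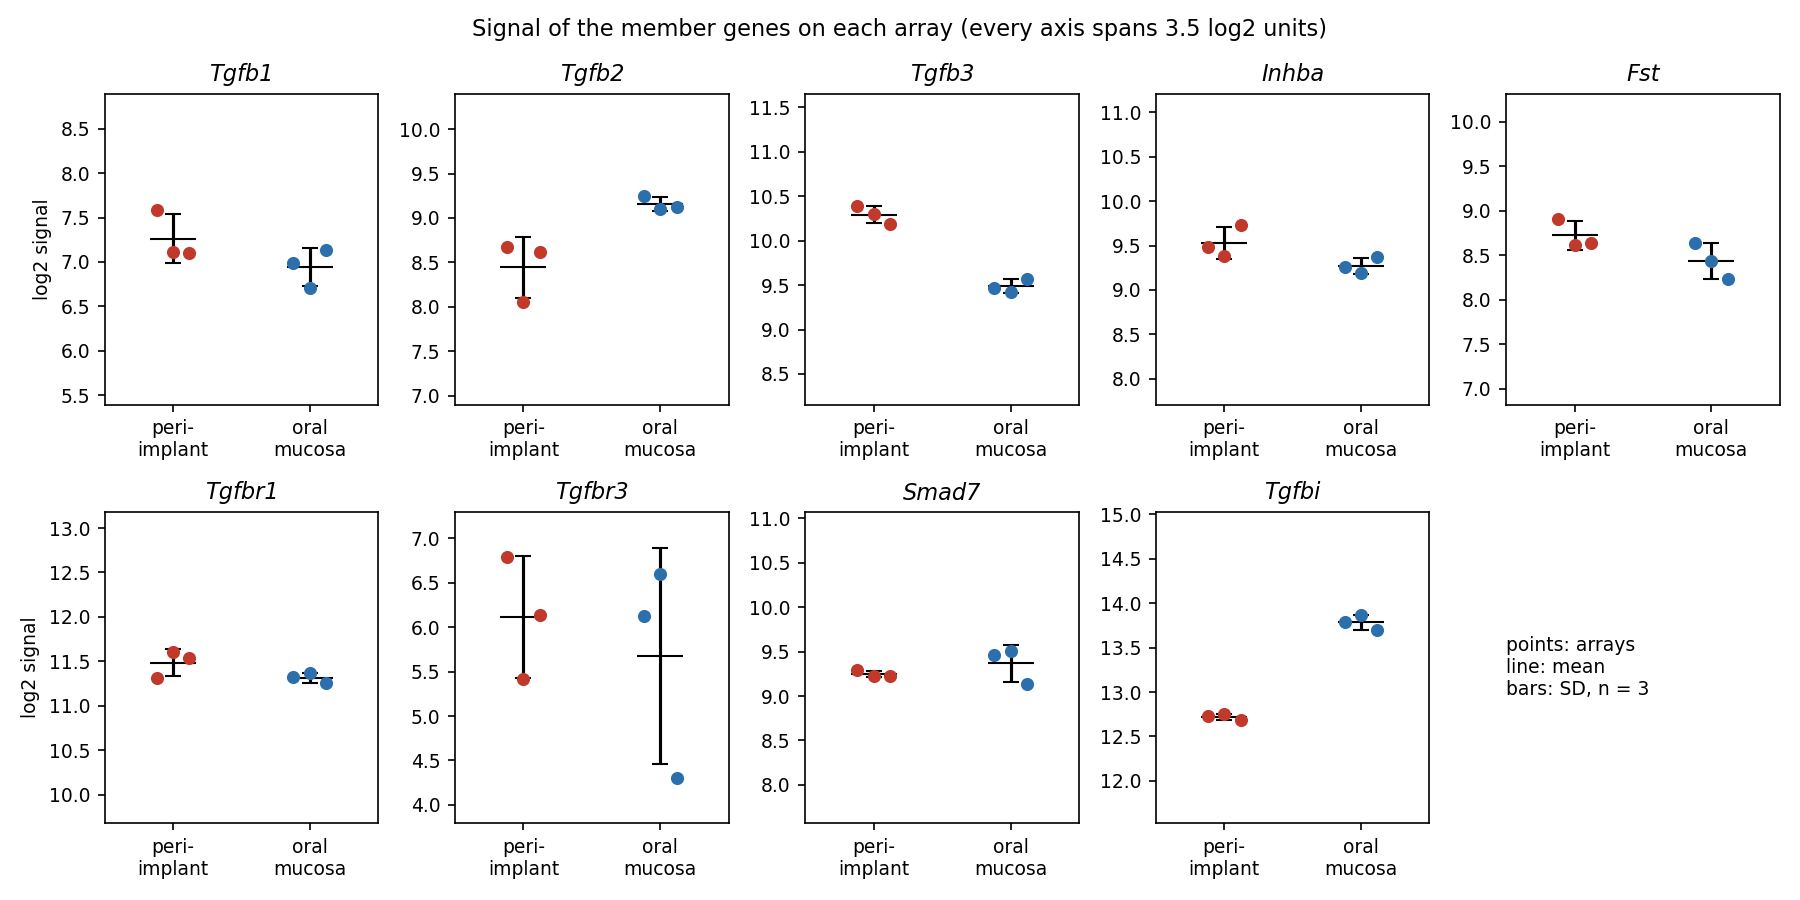
Log2 signal of the 9 measured genes on each array, peri-implant soft tissue in red on the left and oral mucosal tissue in blue on the right of each panel, with the mean as a line and the SD as bars (n = 3). The groups separate for Tgfb3, Tgfb2 and Tgfbi, narrowly for Inhba, and overlap for the other 5 genes.

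Inhba, which encodes the activin A subunit, had 9.48, 9.38 and 9.73 in peri-implant tissue against 9.26, 9.19 and 9.37 in mucosa. The groups did not overlap, but the lowest peri-implant and the highest mucosal array were almost equal. The difference was 0.25 (SE 0.12), with an interval of 0.00 to 0.51, and did not pass (limma adjusted p = 0.147). The other Inhba probe set had the opposite sign, with 7.65 ± 0.28 in peri-implant tissue and 7.79 ± 0.24 in mucosa (SD, n = 3 each), and also did not pass (limma adjusted p = 0.695).

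Fst, the activin antagonist, gave a different answer with each of its probe sets. The brighter one had 8.91, 8.62 and 8.64 in peri-implant tissue against 8.64, 8.44 and 8.23 in mucosa. The groups overlapped, and the difference of 0.29 (SE 0.15) did not pass (limma adjusted p = 0.217). The second probe set had 8.24, 8.11 and 7.88 against 7.40, 6.32 and 7.55, with mucosal array 2 the lowest. Here the groups did not overlap and the difference was 0.99 (SE 0.30; limma adjusted p = 0.0296), or 1.98-fold. Without mucosal array 2 it was 0.60 and did not pass (limma adjusted p = 0.0625). The call was also lost without peri-implant array 1 (limma adjusted p = 0.103) and without peri-implant array 2 (limma adjusted p = 0.0874). With the mean of both probe sets Fst was higher by 0.64 (limma adjusted p = 0.0419). Both probe sets had a positive difference.

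Set against each other on the same array, Inhba minus Fst (the brighter probe set of each) was 0.57, 0.75 and 1.09 in peri-implant tissue and 0.61, 0.75 and 1.15 in mucosa. The shift between tissues was -0.03 (exact two-sided permutation p = 0.7). This value depends on the Fst probe set. With the second one, a setting added after the data were seen, Inhba minus Fst was 1.24, 1.26 and 1.85 in peri-implant tissue and 1.86, 2.87 and 1.82 in mucosa, a shift of -0.73 (exact two-sided permutation p = 0.2), and the groups still overlapped.

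Tgfbr1, the type I receptor for TGF-beta, had 11.31, 11.60 and 11.54 in peri-implant tissue against 11.32, 11.37 and 11.26 in mucosa. The groups overlapped, and the difference of 0.17 (SE 0.09) did not pass (limma adjusted p = 0.193). Its interval of -0.02 to 0.35 was among the narrowest of these genes. The other Tgfbr1 probe set did not reach the filter and was dim (below 5.90 on the log2 scale) in both tissues, at 3.45 ± 1.48 and 5.39 ± 0.41. Averaging the bright and the dim probe set turned the sign, to -0.88 (limma adjusted p = 0.0749).

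Tgfbr3, betaglycan, a co-receptor that presents TGF-beta to the signalling receptors, lay close to the dim level. Its signals were 6.79, 5.42 and 6.14 in peri-implant tissue against 6.12, 6.60 and 4.30 in mucosa. The groups overlapped widely, and the difference of 0.45 (SE 0.58) had an interval of -0.81 to 1.71 (limma adjusted p = 0.64). It was -0.24 without mucosal array 3, the lowest, so its direction rests on that array. The other Tgfbr3 probe set was dim in both tissues, at 4.86 ± 1.17 in peri-implant tissue and 5.79 ± 0.93 in mucosa, and was not tested. Its raw difference of -0.93 had the opposite sign.

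Smad7, an inhibitory Smad that is induced by TGF-beta and blocks its type I receptor, had 9.29, 9.23 and 9.22 in peri-implant tissue against 9.46, 9.51 and 9.13 in mucosa. The groups overlapped, with mucosal array 3 below all of the peri-implant arrays. The difference was -0.12 (SE 0.12; limma adjusted p = 0.549), with an interval of -0.38 to 0.15. A second probe set averaged 5.51 ± 0.55 in peri-implant tissue and 6.27 ± 0.35 in mucosa and did not pass (limma adjusted p = 0.234), and the third was dim in both and not tested. The mean of the probe sets gave a difference of -0.83, which did not pass (limma adjusted p = 0.1).

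Tgfbi, a secreted matrix protein first described as induced by TGF-beta, showed the largest difference of the 9 genes. Its signals were 12.73, 12.75 and 12.68 in peri-implant tissue against 13.79, 13.87 and 13.70 in mucosa. The groups were far apart relative to their spread, at 12.72 ± 0.04 and 13.79 ± 0.08 (SD, n = 3 each). The difference was -1.07 (SE 0.07; limma adjusted p = 3.22e-07), so that mucosa was 2.10-fold higher. It kept its call in all 15 alternative settings in which it was fitted, with differences of -1.11 to -1.0. Of the 10585 genes, 7.61% had a larger absolute difference.

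Over the 6 arrays, the 3 genes whose pattern was most like that of Tgfbi were Asap1 (Pearson r = 0.9991), Col17a1 (r = 0.9986) and Itga6 (r = 0.9981). Among the 10576 genes compared, 77 had r above 0.99. The 6 points come from 2 tissues, and the difference between the tissues is part of this measure.

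**Figure D3:**
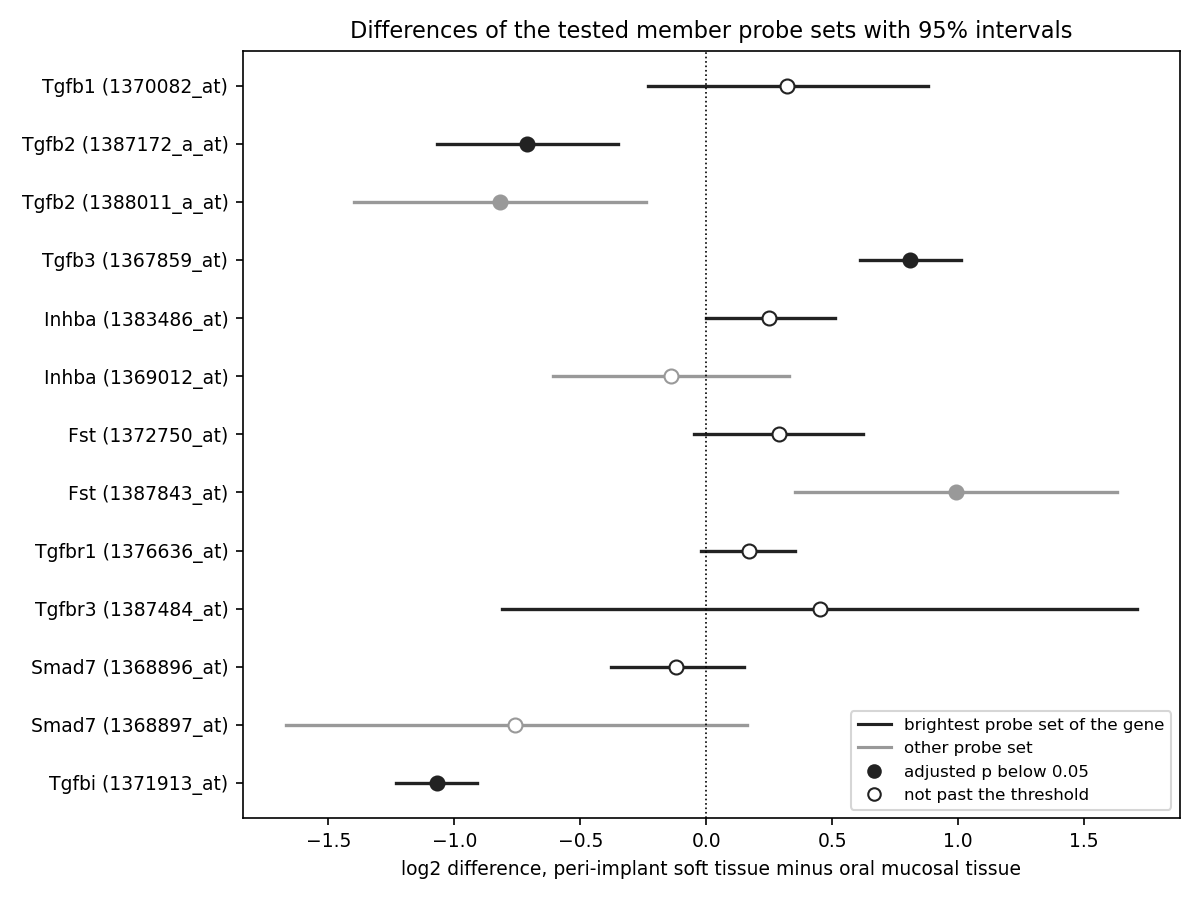
Difference in log2 signal, peri-implant soft tissue minus oral mucosal tissue, for the 13 tested probe sets of the 9 genes, with 95% intervals from the limma fit. Black marks the brightest probe set of a gene and grey the others, and filled points passed an adjusted p of 0.05: both Tgfb2 probe sets and Tgfbi on the left, Tgfb3 and the second Fst probe set on the right.

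Other genes of the pathway were described from lists of ligands, receptors, transducers, inhibitors, storage proteins and response genes. Over all genes tested 15.2% were higher and 11.0% lower, 26.1% in all, and the shares called in each list are read against these. The list of ligands had 25% called, receptors 14.3% and intracellular inhibitors 16.7%, all below that background, against 40% of transducers, 66.7% of antagonists, 52.9% of storage genes and 62.5% of response genes. Among other ligands, 8 of 13 on the array could be tested, of which 2 were lower and 0 higher, with a median difference of 0.08. Inhbb, another activin beta subunit, fell to 9.48 ± 0.03 in peri-implant tissue, against 10.51 ± 0.14 in mucosa, a difference of -1.03 (SE 0.09; limma adjusted p = 3.85e-06). Inhbb thus passed the test where Inhba did not. Bmp2, a bone morphogenetic protein, fell to 10.15 ± 0.12 against 10.84 ± 0.04 (difference -0.69; limma adjusted p = 5.3e-05). Bmp6 differed by 0.35 and Gdf11 by -0.43, neither past the threshold (limma adjusted p = 0.0712 and 0.408).

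Of 7 other receptors tested, 1 was lower and 6 did not pass, with a median of -0.01. Bmpr2, the type II receptor for bone morphogenetic proteins, fell by 0.36 (SE 0.11; limma adjusted p = 0.0385). It did not pass in 8 of 15 alternatives, among them the fits without peri-implant array 2 (limma adjusted p = 0.145), peri-implant array 3 (0.0865), mucosal array 1 (0.163) and mucosal array 3 (0.0684). Acvr2b, Acvrl1 and Bmpr1a, receptors for activins and bone morphogenetic proteins, differed by -0.54, 0.35 and 0.10 and did not pass.

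Among Smads and other transducers, 1 of 10 was higher, 3 were lower and 6 did not pass (median -0.01). Smad2 and Smad3, which receptors for TGF-beta and activin phosphorylate, were among the 3, while their partner Smad4, named after its values were seen, differed by 0.24 and did not pass (limma adjusted p = 0.13). Smad3 stood at 8.30 ± 0.18 in peri-implant tissue and 9.02 ± 0.16 in mucosa, a difference of -0.72 (SE 0.15; limma adjusted p = 0.00302). Zfyve9, the anchor protein that brings Smads to the receptor, fell by 0.73 (limma adjusted p = 0.00105). Averaged with their dimmer second probe sets, Smad3 stood at -0.72 (SE 0.50) and Zfyve9 at -0.67 (SE 0.45) and neither passed (limma adjusted p = 0.367 and 0.34). Smad2 fell by 0.29 (limma adjusted p = 0.0358), and kept a negative difference of -0.34 to -0.22 over 15 alternatives. It did not pass in 7 of them, including those without peri-implant array 1, 2 or 3 or mucosal array 2 (limma adjusted p = 0.103, 0.0639, 0.0974 and 0.12). Smad1, which serves bone morphogenetic proteins, ran against them at 11.97 ± 0.07 and 11.29 ± 0.18, higher by 0.68 (SE 0.09; limma adjusted p = 1.21e-04).

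Of 12 intracellular inhibitors 2 were lower and 10 did not pass, with a median of -0.12. Fkbp1a, which binds and restrains type I receptors, fell by 0.28 (limma adjusted p = 0.0146), and kept a negative difference of -0.32 to -0.17 over 16 alternatives. It did not pass in 5 of them, including those without peri-implant array 1 or 2 (limma adjusted p = 0.0644 and 0.0596). Smad6, the inhibitory Smad of bone morphogenetic protein signalling, fell by 0.69 (limma adjusted p = 0.0485). It no longer passed whichever array was left out (limma adjusted p of 0.0759 to 0.134 in those fits), and its second probe set had the opposite sign, at 0.24. Wwp1, a ubiquitin ligase, and Pmepa1, a TGF-beta-induced inhibitor, differed by -0.39 and -0.14 and did not pass (limma adjusted p = 0.0514 and 0.186).

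Of 9 secreted antagonists tested, 6 were lower, 0 higher and 3 did not pass. The number lower was 5 with no filter, 4 with the mean of probe sets and 4 to 6 when 1 array was left out. The median was -0.63, where all genes had 0.0346. Grem1, gremlin, which binds bone morphogenetic proteins, had the smallest p of these, and fell to 7.70 ± 0.16 in peri-implant tissue, against 9.08 ± 0.08 in mucosa (difference -1.38, SE 0.15; limma adjusted p = 1.92e-05). Sostdc1 and Nbl1, antagonists of the same ligands, fell by 0.56 and 0.66 (limma adjusted p = 1.74e-04 and 9.25e-04). Fstl1, a follistatin-like protein, fell by 0.55 (limma adjusted p = 0.00361). Nog, named after its values were seen, was dim in peri-implant tissue, at 4.94 ± 1.82, and stood at 7.17 ± 0.29 in mucosa. Its difference was -2.24 (SE 0.69; limma adjusted p = 0.0335). The peri-implant arrays read 6.01, 2.84 and 5.96, so the size rests largely on array 2. With values below 5.90 raised to that level the Nog difference was -1.22. Nog was not among the genes followed over the alternatives. Fstl3, a follistatin relative that binds activins, was named after its values were seen, and fell by 0.63 (limma adjusted p = 0.0205), and did not pass in 4 of 16 alternatives (differences of -0.72 to -0.51 over all), including those without peri-implant array 2 (0.0917) and mucosal array 3 (0.0686).

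The list of genes for TGF-beta storage and activation, which also holds TGF-beta-binding proteoglycans, had 7 of 17 higher and 2 lower. The other 8 did not pass, and the median was 0.34. Of these genes, Dcn is also among the fibroblast markers. Ltbp1, which tethers latent TGF-beta to the matrix, was 2.29-fold higher (difference 1.20; limma adjusted p = 2.69e-07). Its relatives Ltbp2 and Ltbp4, named after their values were seen, were higher by 1.23 and 0.58, and Ltbp3 differed by 0.23 (limma adjusted p = 0.00368, 0.00165 and 0.0967). Fmod, fibromodulin, a small proteoglycan that binds TGF-beta, was higher by 1.81, at 9.51 ± 0.13 in peri-implant tissue and 7.70 ± 0.42 in mucosa (limma adjusted p = 1.49e-05). The integrin subunits went both ways. Itgb5 fell by 0.39, while Itgb6, named after its values were seen, was higher by 0.43 (limma adjusted p = 8.19e-04 and 0.0202). Nrros, also named after its values were seen, was higher by 0.86 (limma adjusted p = 0.0268). Aspn, asporin, another TGF-beta-binding proteoglycan, fell by 1.91 (limma adjusted p = 2.92e-04). Dcn and Bgn, decorin and biglycan, proteoglycans of the same family named after their values were seen, differed by 0.34 and 0.00 (limma adjusted p = 0.00517 and 1), so that of these 4 proteoglycans 2 were higher, 1 was lower and 1 did not pass.

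Genes known to respond to TGF-beta went both ways, since 5 of 24 were higher and 10 lower, the other 9 did not pass, and the median was -0.20. The list does not record the direction of each response, so these counts do not measure TGF-beta activity. Ccn2, connective tissue growth factor and a direct Smad target, fell to 10.65 ± 0.11 in peri-implant tissue, against 11.71 ± 0.03 in mucosa, a difference of -1.06 (SE 0.08; limma adjusted p = 4.93e-07). The matrix genes Tnc, Postn and Col1a1 fell by 2.69, 1.06 and 0.83. The list shares Col1a1, Col1a2 and Col3a1 with the fibroblast markers, whose summed signals are given above. It also shares Acta2, Tagln and Cnn1 with the smooth muscle markers, of which Acta2 was called lower. The higher members were Angptl4, a lipase inhibitor, at 2.24, Has2, a hyaluronan synthase, at 1.35, the collagen cross-linking enzyme Lox at 0.58, the transcriptional regulator Id3 at 0.43 and fibronectin, Fn1, at 0.35. Fn1 no longer passed after median centring or with an untrended variance (limma adjusted p = 0.0578 and 0.051).

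**Figure D4:**
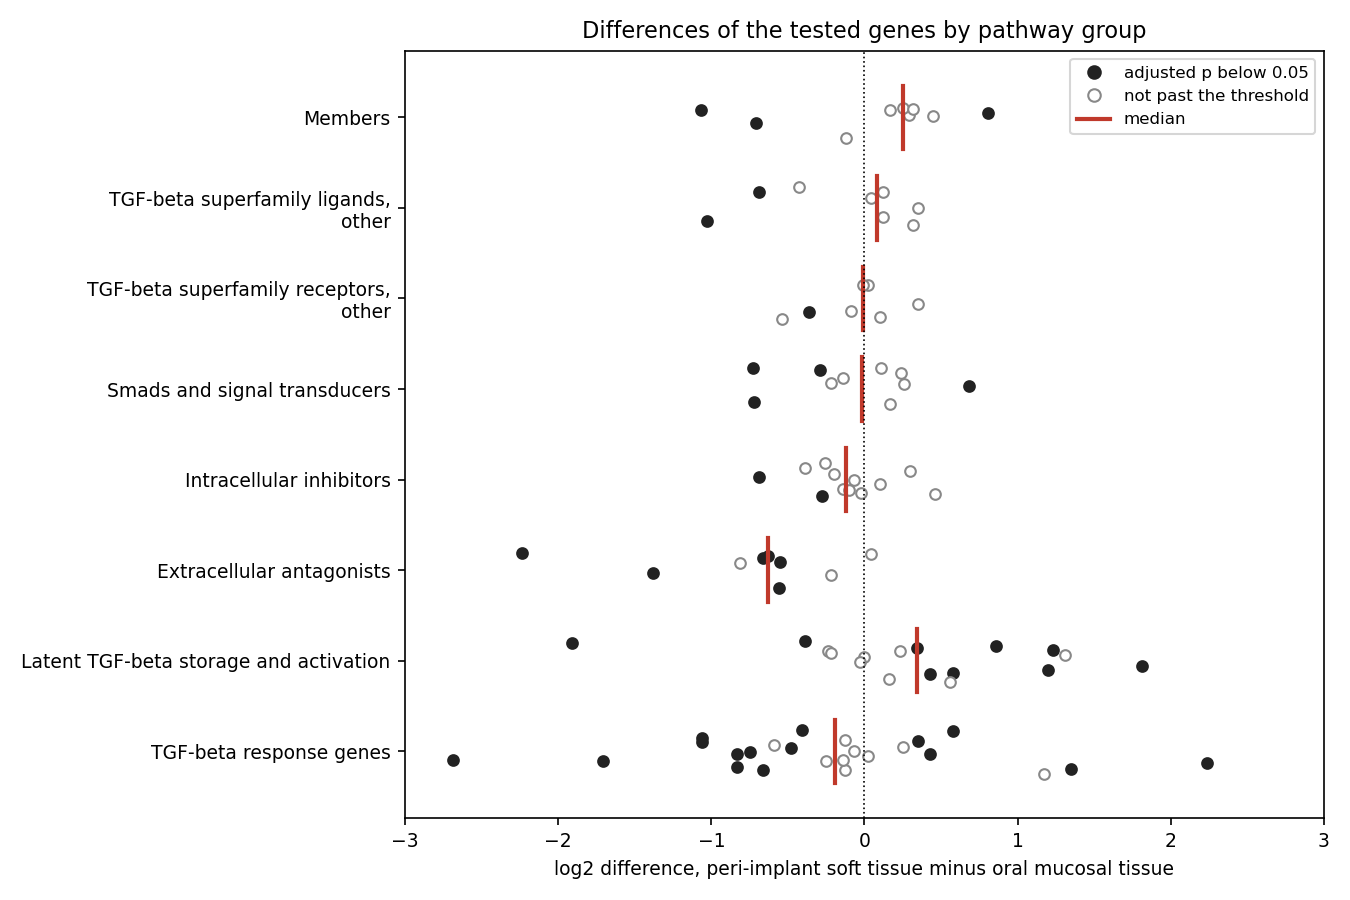
Difference in log2 signal, peri-implant soft tissue minus oral mucosal tissue, for each tested gene of the 9 measured members and of the 7 other pathway groups, with the group median as a red line. Filled points passed an adjusted p of 0.05. The antagonists lie mostly to the left (median -0.63) and the response genes on both sides (median -0.20). The storage and activation list, which includes TGF-beta-binding proteoglycans, lies mostly to the right (median 0.34).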

How the data were processed

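The deposited table holds log2 signals, which the authors had scaled per array, as the values show: the trimmed mean of the linear signals was 500.2 on every array. Total RNA was labelled with biotin using an Affymetrix kit for 3' arrays (per the labels' protocols). Which software and background method were applied is not stated here. The table has 31099 probe sets, 57 of them array controls, which were left out. The values were used as deposited, with no further normalisation and no pseudocount.

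Array annotation gave 1 symbol to 20826 non-control probe sets, several to 436 and none to 9780. Only probe sets with 1 symbol were named. Probe sets with a mean above the 40th percentile, 5.68, were tested (18625). Signals below 5.90, the 40th percentile of single values, are called dim. No detection calls were used, and the number of arrays limits the precision.

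The 3 peri-implant arrays were set against the 3 mucosal arrays in limma 3.58.1 and R 4.3.3 (two-sided moderated test, variance trend on). P-values were adjusted (Benjamini-Hochberg) across the 18625 probe sets, and calls need an adjusted p under 0.05. Positive differences mean higher in peri-implant tissue, and intervals are 95%. Alternatives changed the filter, normalisation, variance model, dim values, probe set, block and arrays included. In simulated data 18425 of the 18625 probe sets were left unchanged. Of 50 changed by 0.5 on the log2 scale 28% were recovered, and of 50 changed by 1, 62%. On the real arrays 22.5% of probe sets were called, a larger share than was changed in the simulation, so recovery there may differ.

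The genes and lists were chosen with earlier results of these data known. Named were all members, up to 4 genes with the smallest p in each list, and called genes that ran against their list. The 3 genes most like the member with the largest difference were also named. Promoters came from RefSeq (GRCr8). Replicate numbers are shared between the groups, but same-numbered arrays did not deviate together (r = 0.013, -0.079 and 0.027), and the labels do not say that a number marks a rat, so the arrays were not paired.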

Additional observations from a re-analysis of the deposited data

How the results depend on the processing

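The calls for Tgfb3 and Tgfbi held in all alternatives in which these genes were fitted (differences of 0.76 to 0.86 and -1.11 to -1.0), and Tgfb1 and Smad7 passed in none. Without the variance trend Tgfb2 stayed at -0.71 and lost its call (limma adjusted p = 0.0514), so 1 member was called lower, as were 718 genes in all. There the second Fst probe set, still at 0.99, also lost its call (0.106), and the receptor list kept 0 lower genes and the storage list 4 higher. With the mean of probe sets 2 members were higher, since Fst passed at 0.64, Tgfbr1 turned to -0.88, and Smad7 moved to -0.83 without passing. The lower genes then numbered 0 among receptors, 1 among transducers and 1 among intracellular inhibitors. With the second probe set of each gene, which leaves only genes with 2 tested probe sets, Inhba turned to -0.14 and Smad6 to 0.24, Fst passed at 0.99, and 1 member was lower. All genes then counted 184 higher and 277 lower, and the lists were lower in 1 ligand, 0 receptors, 0 transducers, 0 intracellular inhibitors, 1 antagonist and 3 response genes, and higher in 0 storage genes and 1 response gene. Intracellular inhibitors were lower in 1 gene with no filter, with the filter at the 60th percentile and with median centring. Receptors were lower in 0 with no filter and with median centring, and storage genes in 1 with the filter at the 60th percentile. With no filter the second Tgfb2 probe set, still at -0.82, lost its call (limma adjusted p = 0.0875).

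With the replicate number as a block, 1562 genes were higher and 1142 lower, against 1606 and 1161 without it, and the second Tgfb2 probe set at -0.82 did not pass (limma adjusted p = 0.0661). Intracellular inhibitors then held 1 lower gene. No other call on a member changed, and the arrays did not each correlate best with their own number.

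Leaving out each array in turn, members called stayed at 1 higher and 2 lower. Tgfbr3 ranged from -0.24 to 0.91, the second Tgfb2 probe set from -0.98 to -0.73 and the second Fst probe set from 0.60 to 1.22. Counts of lower genes ranged from 0 to 1 for receptors, from 0 to 3 for intracellular inhibitors and from 4 to 6 for antagonists. Counts of higher genes ranged from 1 to 2 for transducers and from 5 to 7 for storage genes. The named pathway genes that were called were followed over all alternatives, except Nog, Dcn, Itgb6, Nrros, Acta2, Col1a2 and Col3a1. Those followed passed with the same sign in 403 fits, lost the call in 36 and turned in 1, that of Smad6.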
